A study of Danio rerio with 4 samples.

Results

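The genes described here encode RNA polymerase II, its general transcription factors and the Mediator complex of the zebrafish (Danio rerio). They were chosen by name, as every gene whose symbol begins with polr2, gtf2, taf plus a digit, or med plus a digit. This gave 69 genes of 14905 named genes in the deposited tables: 11 polr2, 14 gtf2, 17 taf and 27 med genes. Of these, 67 had a value in the expression table, which names 14792 genes, and 66 had at least 1 long-read transcript model. The expression table lacks values for med24 and taf5l, which were seen as long-read models alone.

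RNA polymerase II transcribes the protein-coding genes. It is brought to promoters by general factors: TFIID, made of the TATA-binding protein TBP and its associated factors (TAFs), then TFIIA, TFIIB, TFIIE, TFIIF and TFIIH. Mediator is a large complex that carries signals from DNA-bound activators to the polymerase. In the early zebrafish embryo the egg supplies these mRNAs and proteins, and the embryo's own genome is switched on later, at zygotic genome activation (ZGA). The drug α-amanitin binds the largest polymerase II subunit and stops elongation. That subunit, encoded by polr2a, is annotated in the RefSeq gene table through a predicted transcript and was not analysed here, nor were med1, med9, taf4a and taf4b.

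Each group was 1 pooled library of wild-type embryos from natural spawning (AB, TAB14 or TAB5 adults). The untreated long-read library and the α-amanitin long-read library each came from 15 embryos, and the drug was injected as 0.2 nmol at the 1-cell to 4-cell stages. Both are labelled 6 hours post fertilization (hpf) by their stage tags, whereas the titles call them post-ZGA and pre-ZGA, and the source names give epiboly for the untreated sample and the 256-cell stage for the α-amanitin sample. A pair of untreated short-read samples, of about 20 embryos each at 2.5 and 5.25 hpf, had no per-sample file analysed here. The expression table has 2 columns, headed as control and as α-amanitin, and is silent on which reads they hold. They are called the control column and the drug column here, and the α-amanitin long-read library is called the drug library. If they hold the short-read samples, the columns differ in stage rather than in drug, and the labels cannot settle this. With 1 library a group, no difference below has a replicate check or a test.

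Levels are in TPM, a relative transcript abundance scaled for length and for the library. A gene's level is the sum of its RefSeq rows. PacBio-derived (PB) rows, which are counted apart in the same table and were not joined to genes, took 55.6% (control) and 58.8% (α-amanitin) of all TPM. A RefSeq level is therefore an unknown part of a gene's signal: a low one does not show that its RNA was scarce, and an order of genes by level is an order of their RefSeq rows alone. Depth is unknown, and in pooled embryos fewer cells of a type and less RNA per cell cannot be told apart. The columns differ in markers of stage and of cell type. The 7 zygotic genes checked (vox, ved, tbx16, gsc, foxd3, tbxta and mixl1) lay between 41.1 and 674 TPM in the control column and at most at 2.50 TPM in the drug column. Of 6 maternal genes with a value, 5 were at least 2-fold lower in the control column. The 4 markers of the yolk syncytial and enveloping layers (apoa1b, apoeb, krt4 and krt18a.1) summed to 5173 TPM in the control column and 5.60 TPM in the drug column. Their part in the differences below was not tested.

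The RefSeq rows of these genes, an unknown part of their signal, had nearly the same sum in both columns. The RefSeq rows of the 67 genes added up to 2522 TPM in the control column and 2548 TPM in the drug column. At least 1 TPM in both columns was reached by 57 of 67 genes (85.1%, Wilson 95% interval 74.7 to 91.7), against 50.9% of all named genes. The median level was 22 TPM in the control column and 27.7 TPM in the drug column, against 3.27 and 2.71 TPM over all named genes. By family, the polr2 genes summed to 895 TPM in the control column and 636 TPM in the drug column, the gtf2 genes to 670 and 804 TPM, the taf genes to 320 and 374 TPM, and the med genes to 636 and 735 TPM.

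The ratio between the columns was computed as log2 of (control TPM + 1) over (α-amanitin TPM + 1), which understates the change of low genes. A gene was called different past 2-fold. Of the 67 genes, 13 were higher in the control column by 2-fold or more (19.4%, 11.7 to 30.4), where 22.5% of all named genes were. Another 11 were at least 2-fold lower (16.4%, 9.42 to 27.1), where 25.7% of all named genes were. The remaining 43 lay within 2-fold. Both intervals hold the share over all named genes, which had lower median levels. The median log2 ratio of the 67 genes was 0.12, against 0.00 for all named genes. At 5 TPM or more in either column, 11 of 59 genes were higher and 11 lower, against 2413 and 3375 of 8367 named genes. At that level 37 of the 59 lay within 2-fold, against 2579 of the 8367, and the medians were 0.08 and −0.47. The difference was not tested.

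A pair of limits applies to these counts. Of the 13 genes higher in the control column, 7 were listed below 0.01 TPM in the drug column. Without the 9 genes below 0.01 TPM in a column, 6 of 58 were higher (10.3%, 4.83 to 20.8, against 22.8% of named genes filtered alike). Another 11 were lower (19.0%, 10.9 to 30.9, against 28.1%). The RefSeq rows at 1 TPM or more in both columns had a median log2 ratio of −0.48. With the columns centred on it, 23 of the 67 genes were at least 2-fold higher (34.3%, 24.1 to 46.3, all named genes 30.4%). A further 4 were lower (5.97%, 2.35 to 14.4, all named genes 18.8%). Past 4-fold were 8 genes higher (11.9%, 6.18 to 21.8, all named genes 12.7%) and 2 lower (2.99%, 0.822 to 10.2, all named genes 13.0%). The interval thus lay below the all-gene share for genes higher without values near 0, lower after centring and lower past 4-fold. These intervals cover counting error alone.

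**Figure D1:**
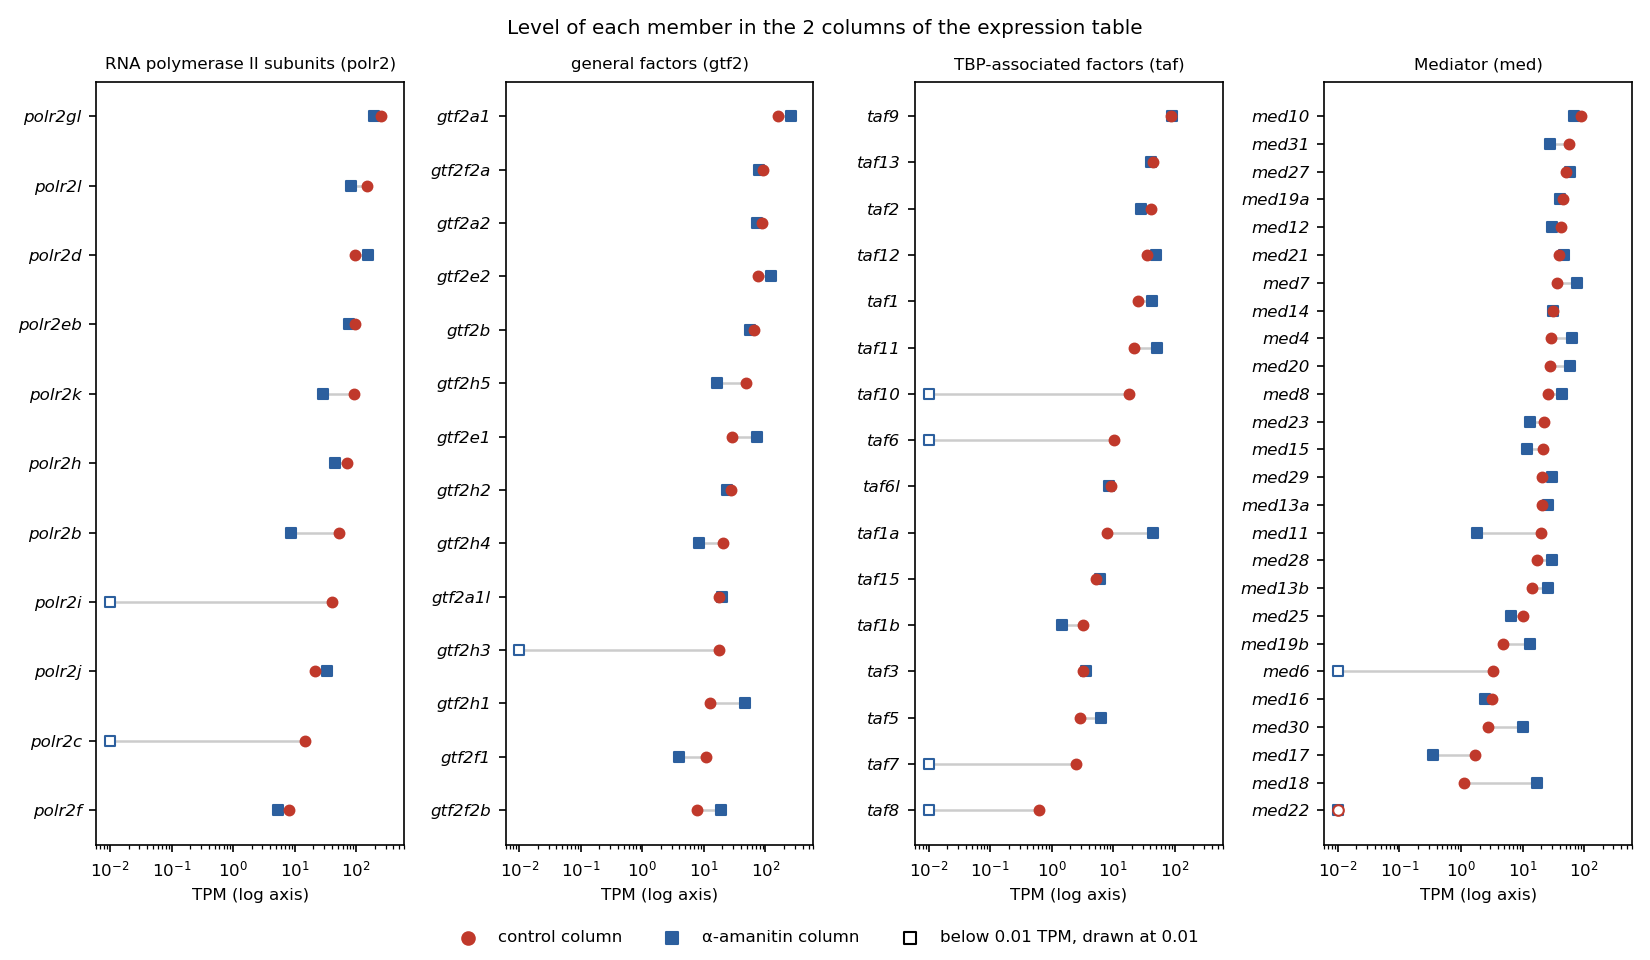
Level of each of the 67 genes in TPM on a log axis, with circles for control and squares for α-amanitin, in panels by gene family. Open symbols lie below 0.01 TPM and are drawn at 0.01; 9 genes have one in the drug column, and med22 has one in both.

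The subunits of RNA polymerase II were described first. The polr2 family had the highest median log2 ratio of the families, 0.64, with 4 of 11 genes past 2-fold toward the control column and 0 toward the drug column, where 22.5% and 25.7% of all named genes were. All 11 reached 5 TPM in a column, a level at which 2413 of 8367 named genes were higher and 3375 lower. Of the 4, polr2c and polr2i were listed near 0 in the drug column, and after centring 6 of 11 were higher (all named genes, 30.4%). The median was 0.48 without the genes near 0. The highest RefSeq level in the control column was that of polr2gl (NM_199669), which encodes the stalk subunit Rpb7 and is named polr2g in the current RefSeq gene table, at 254 TPM in the control column and 195 TPM in the drug column. Its stalk partner Rpb4, encoded by polr2d, was at 96.1 and 159 TPM, respectively, a log2 ratio of −0.72. The stalk genes thus differed in opposite directions, each by less than 2-fold.

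The gene of the second-largest subunit, polr2b (NM_001024461), was at 53.5 TPM in the control column and 8.65 TPM in the drug column, a log2 ratio of 2.50. Its long-read models differed as well. In the untreated library 1 model of 3712 bases matched every intron of the 3736-base reference, and in the drug library 1 model of 1621 bases shared a junction with it. Of the assembly partners Rpb3 and Rpb11, polr2j (Rpb11) was at 21.5 TPM in the control column and 34.2 TPM in the drug column, and polr2c (Rpb3) was at 14.6 TPM in the control column and listed at 1.50e-09 TPM in the other. Likewise, polr2i, whose product Rpb9 acts in start-site choice and fidelity in yeast, was at 40.02 TPM in the control column and listed at 1.90e-07 TPM in the drug column. Both polr2c and polr2i had an intron-matched model in each long-read library, so these listed values near 0 stand beside sequenced transcripts of the same genes.

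The subunits that RNA polymerase II shares with polymerases I and III all had the higher value in the control column, 5 of 5, where 7285 of 14792 named genes did. The largest ratio among them was that of polr2k (Rpb12), at 93.6 TPM in the control column and 29.0 TPM in the drug column (log2 ratio 1.66). Next was polr2l (Rpb10), at 147 and 82.6 TPM (0.83). The others were polr2h (Rpb8), at 71.5 and 45.6 TPM, polr2f (Rpb6), at 7.97 and 5.43 TPM, and polr2eb (Rpb5), at 94.9 and 76.3 TPM. Only polr2k passed 2-fold, and after centring polr2h and polr2l passed it as well, where 22.5% and 30.4% of all named genes were higher, respectively.

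TFIIA, which steadies TBP on the promoter, and TFIIB, which helps to place the start site, had 0 of 4 genes past 2-fold, where 7666 of 14792 named genes lay within it. All 4 reached 5 TPM in a column, a level at which 2579 of 8367 named genes lay within 2-fold. The difference was not tested. The large TFIIA subunit, gtf2a1, was at 160 TPM in the control column and 264 TPM in the drug column (log2 ratio −0.72), the highest α-amanitin value of all 67 genes. The small subunit gtf2a2 was at 87.4 and 72.7 TPM, and gtf2b, which encodes TFIIB, at 65.1 and 55.2 TPM. The related gtf2a1l, whose mammalian counterpart is a germ cell form of the large subunit, was at 17.6 and 19.6 TPM.

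TFIIE, which recruits TFIIH, and TFIIF, which travels with the polymerase, were mixed. Past 2-fold, 1 of their 5 genes was higher in the control column and 2 were lower, where 22.5% and 25.7% of all named genes were. After centring 1 was higher and 0 were lower, where 30.4% and 18.8% of all named genes were. The TFIIE subunit genes were both lower in the control column: gtf2e1 was at 28.9 TPM there and 73.0 TPM in the drug column (log2 ratio −1.31), and gtf2e2 was at 76.8 and 121 TPM (−0.65). The large TFIIF subunit, gtf2f1, was at 10.8 and 3.91 TPM (1.26). The small TFIIF subunit has a pair of genes, of which gtf2f2a was at 90.3 and 79.2 TPM and gtf2f2b at 7.77 and 18.7 TPM (−1.16).

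TFIIH opens promoter DNA and also serves DNA repair, and its core genes named gtf2h lay past 2-fold in each direction. Of these 5 genes 3 were higher in the control column and 1 lower, where 22.5% and 25.7% of all named genes were. The TFIIH genes ercc2 and ercc3 lie outside the name rule and are not among the 5. The p62 gene gtf2h1 was at 12.6 TPM in the control column and 46.5 TPM in the drug column (log2 ratio −1.80), the lowest ratio among the gtf2 genes. The p52 gene gtf2h4 was at 20.03 and 8.45 TPM (1.15), and the p44 gene gtf2h2 at 27.3 and 23.8 TPM (0.19). The p34 gene gtf2h3 was at 17.4 TPM in the control column and listed at 0.00445 TPM in the other, with an intron-matched model in each library. The value of gtf2h5, whose human counterpart stabilises TFIIH, depended on which transcript was read. Its row NM_001243148 was at 39.6 TPM in the control column and 0.00506 TPM in the drug column, NM_001134362 was at 8.85 and 16.6 TPM, and NM_001302744 was listed at 0 in both. Summed, gtf2h5 was at 48.5 and 16.6 TPM (1.49), while its row NM_001134362 alone had a ratio of −0.84. Both NM_001243148 and NM_001134362 had an intron-matched model in each library, and NM_001302744, listed at 0, had one of 763 bases in the drug library.

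**Figure D2:**
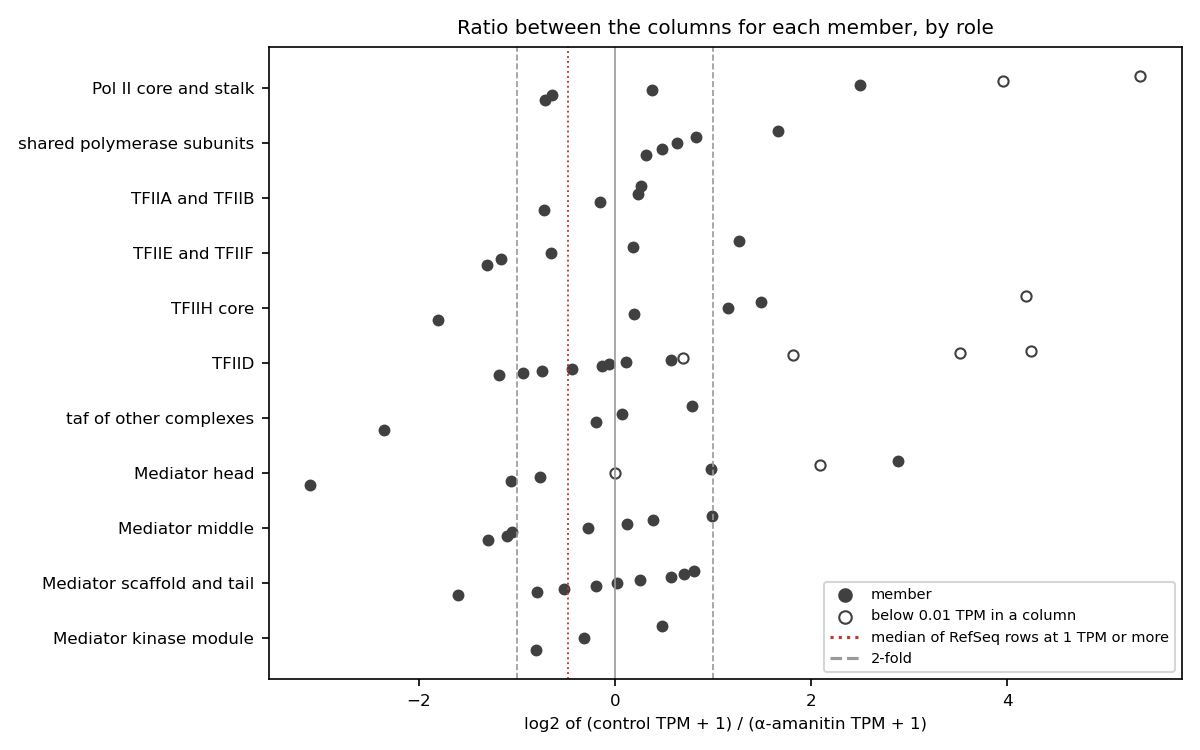
Log2 ratio of control to α-amanitin TPM (1 TPM added to each) for each of the 67 genes, one point per gene, by role. Dashed lines mark 2-fold and the dotted line the median of RefSeq rows at 1 TPM or more in both columns (−0.48). Open points, below 0.01 TPM in a column, make up 7 of the 13 points at or beyond the right-hand dashed line.

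TFIID was described through its 12 TAF genes, of which 3 were higher in the control column past 2-fold, 1 was lower and 8 were within it. All 3 higher genes (taf6, taf7 and taf10) were listed near 0 in the drug column. After centring 5 were higher and 0 lower. Over all named genes the shares were 22.5% and 25.7%, or 30.4% and 18.8% after centring. The scaffold gene taf1 was at 25.4 TPM in the control column and 43.1 TPM in the drug column (log2 ratio −0.74), and taf2 was at 41.7 and 27.7 TPM (0.57). Many TAFs pair through histone folds. In the pair of taf11 and taf13, taf11 was at 22 and 51.2 TPM (−1.18) and taf13 at 44.8 and 41.4 TPM (0.11). In the pair of taf6 and taf9, taf9 had the highest RefSeq level of the TAFs, at 87.2 and 91.04 TPM, and taf6 was at 10.5 TPM in the control column and listed at 0.000146 TPM in the other. Thus taf13 was above taf11 in the control column and somewhat below it in the drug column. The other pair rests in the drug column on a value listed near 0, and these are RefSeq levels alone.

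The partner of TAF3 and TAF8 is TAF10. Of these, taf10 was at 17.9 TPM in the control column and listed at 0.000256 TPM in the drug column, taf8 was at 0.619 TPM and listed at 0, and taf3 was at 3.23 and 3.65 TPM. The gene taf7 was at 2.51 TPM in the control column and listed at 0 in the other. In TFIID 4 of 12 genes were thus below 0.01 TPM in the drug column. So were 2 of 6 genes of the RNA polymerase II core and stalk, 9 of all 67 genes and 2238 of 14792 named genes. Many of the 2238 were low in the control column too: 592 of them reached 1 TPM there. At 5 TPM or more in either column, the counts were 5 of 59 genes and 232 of 8367 named genes. Of the other TFIID genes, taf12 was at 35.6 and 48.6 TPM and taf5 at 2.87 and 6.41 TPM.

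A few taf genes belong to other complexes. The lowest ratio among all taf genes was that of taf1a, which encodes a subunit of SL1, the promoter factor of RNA polymerase I, at 7.88 TPM in the control column and 44.5 TPM in the drug column (log2 ratio −2.36). Another SL1 gene, taf1b, was at 3.25 and 1.48 TPM. The SAGA coactivator gene taf6l was at 9.07 and 8.55 TPM, and taf15, an RNA-binding protein gene of the FET family, at 5.25 and 6.13 TPM.

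Past 2-fold, 2 of the 26 Mediator genes were higher in the control column and 6 lower; 18 were within it, and the median log2 ratio was −0.10. After centring the balance was the opposite, with 7 higher, 2 lower and a median of 0.38. Over all named genes 22.5% were higher and 25.7% lower, or 30.4% and 18.8% after centring. The head module, which contacts the polymerase, had the widest range. Its gene med18 had the lowest ratio of all 67 genes, at 1.11 TPM in the control column and 17.2 TPM in the drug column (log2 ratio −3.11). In contrast, med11 was at 20.1 and 1.85 TPM (2.89). The gene med20, whose product pairs with that of med18 in yeast, was at 27.7 and 58.8 TPM (−1.06). For med18, med11 and med20, each library held 1 intron-matched model.

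The remaining head genes were low or near 0, apart from med8, at 25.6 TPM in the control column and 44.2 TPM in the drug column. The central head subunit gene med17 was at 1.66 and 0.346 TPM, and med6 was at 3.25 TPM in the control column and listed at 0 in the other. Uniquely among the 67 genes, med22 was listed at 0 in both columns, although each library held an intron-matched model of it. Those models, of 1862 bases (untreated) and 1822 bases (α-amanitin), were longer than the 1283-base RefSeq transcript.

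The middle module, which links head and tail, had 3 of 7 genes lower past 2-fold in the control column and 0 higher. Over all named genes 25.7% were lower and 22.5% higher. All 7 reached 5 TPM in a column, a level at which 3375 of 8367 named genes were lower and 2413 higher. After centring the only one of the 7 past 2-fold was med31, which was then higher (all named genes, 30.4%). The genes med4 and med7 were alike, at 29.2 and 63.7 TPM (log2 ratio −1.10) and at 36.4 and 76.3 TPM (−1.05), respectively. The third was med19b, at 4.79 TPM in the control column and 13.2 TPM in the drug column (−1.29), whose paralog med19a was at 44.8 and 41.1 TPM. The highest ratio in the module was that of med31, at 57.3 and 28.4 TPM (0.99), just inside 2-fold. The Mediator gene with the highest RefSeq level in the control column, med10, was at 89.0 and 67.6 TPM, and med21 was at 38.5 and 46.9 TPM.

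The scaffold and tail genes, of which the tail products meet the activators, had 1 of 9 past 2-fold, where 7666 of 14792 named genes lay within it. At 5 TPM or more in either column, reached by 8 of the 9, 2579 of 8367 named genes lay within 2-fold. The gene past 2-fold was med30, at 2.72 TPM in the control column and 10.3 TPM in the drug column (log2 ratio −1.60). The scaffold gene med14 had nearly the same value in the columns, 31.1 and 30.7 TPM. The tail genes med15, at 21.3 and 11.7 TPM, and med23, at 22.2 and 13.3 TPM, were higher in the control column by less than 2-fold. In the kinase module, which holds Mediator away from the polymerase, med12 was at 42.8 and 30.4 TPM, and its partner's paralogs were med13a, at 20.5 and 25.7 TPM, and med13b, at 14.5 and 26.1 TPM. After centring, 3 scaffold and tail genes were at least 2-fold higher and 1 was lower, where 30.4% and 18.8% of all named genes were.

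Paralogs were set side by side. In the pairs gtf2f2a and gtf2f2b, med19a and med19b, and med13a and med13b, the gene ending in b was lower than its partner in the control column. It also had the lower log2 ratio in each pair, at −1.16 against 0.19, −1.29 against 0.12, and −0.81 against −0.32. Here gtf2f2b had 0 long-read models, and med13b and med19b had 1 each, in the untreated library. For gtf2a1 and gtf2a1l the ratios were −0.72 and −0.15. The pair of taf6 and taf6l, in which the latter belongs to SAGA, differed through the value of taf6 listed near 0. Reads of paralogs with similar sequence may be divided between them, so values within a pair are uncertain.

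Values near 0 were set against the long-read models. Of the 67, 7 (10.4%) were at 1 TPM or more in the control column and below 0.01 TPM in the drug column, against 4.0% of all named genes. None was near 0 in the control column with 1 TPM or more in the other (0 of 67, which allows a share of up to 4.48%), against 2.86% of all named genes. Both shares of all named genes include genes below 1 TPM in both columns, which could not be counted. The 7 genes were gtf2h3, med6, polr2c, polr2i, taf6, taf7 and taf10, and all of them had an intron-matched long-read model in the drug library. Among the 46 genes that had such a model in either library and 1 TPM or more in either column, the 7 made up 15.2%, where 4.94% of all named genes in that position were near 0 in the drug column and 8.05% in the control column. The limit of 0.01 TPM was chosen after the values were seen. The PB rows, which took 58.8% of all TPM in the drug column, were not joined to genes. Whether the values near 0 are failed estimates, or whether the signal of these genes was counted in PB rows, was not tested. No fold is printed for any of the 7 singly. They are counted among the 13 genes higher past 2-fold and are drawn as open points in the plot of log2 ratios by role.

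The long-read libraries were read next for the structures of the same genes. The untreated library held 90 models of 63 of the 69 genes (91.3%, Wilson 95% interval 82.3 to 96.0), and its drug counterpart 99 models of 61 genes (88.4%, 78.8 to 94.0). Of all named genes, 43.9% and 44.7% had a model, respectively. Both libraries had a model of 58 genes (84.1%, against 37.1% of all named genes). Seen in the untreated library alone were 5 genes, gtf2h4, med13b, med19b, med23 and polr2k (7.25%, against 6.74% of all named genes). Seen in the drug library alone were 3, gtf2e1, gtf2h1 and taf6 (4.35%, against 7.54%). In neither library were gtf2f2b, med8 and med30 seen (3 of 69, against 48.6%). All named genes had lower median levels, so these shares are not matched for level. Among genes at 1 TPM or more in either column, 46 of the set had an intron-matched model in either library. Another 16 had models of other classes alone and 3 had none, against 4410, 2591 and 4010 named genes, respectively. Detection and expression did not always go the same way: of the 5 genes seen in the untreated library alone, gtf2h4, med23 and polr2k had the higher value in the control column and med13b and med19b the lower. Of the 3 seen in the drug library alone, gtf2e1 and gtf2h1 had the higher value in the drug column. The third, taf6, was at 10.5 TPM in the control column and listed near 0 in the drug column.

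Models whose introns all match a reference transcript made up 47.8% of the untreated models of these genes (37.8 to 58.0) and 46.5% of the drug ones (37.0 to 56.2), against 40.3% and 40.4% over all reference genes. Models that share a junction but differ in structure made up 27.8% and 32.3%, and models contained in a reference transcript 23.3% and 18.2%, against 30.4% and 32.6%, and 20.1% and 18.4%, over all reference genes. The intervals of the libraries overlapped in each class. More than 1 model was found for 15 of the 63 untreated genes (23.8%, 15.0 to 35.6) and for 24 of the 61 in the drug library (39.3%, 28.1 to 51.9), where all reference genes had 33.3% and 34.9%. These intervals overlap, and they cover counting error alone.

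The most models belonged to gtf2f1, with 6 untreated and 5 in the drug library, and not one matched all introns of its 1901-base reference. The 6 untreated models all shared a junction and ran from 419 to 2143 bases, while the 5 in the drug library had at most 981 bases, and 2 of them were contained fragments. Next came taf15, with 3 and 5 models, and gtf2a1, with 4 and 4. Each library had an intron-matched model of taf15 of 1857 bases, and one of gtf2a1, of 2747 bases (untreated) and 2864 bases (α-amanitin). The 4 models of taf2 in the untreated library and its 2 in the other were all contained fragments.

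**Figure D3:**
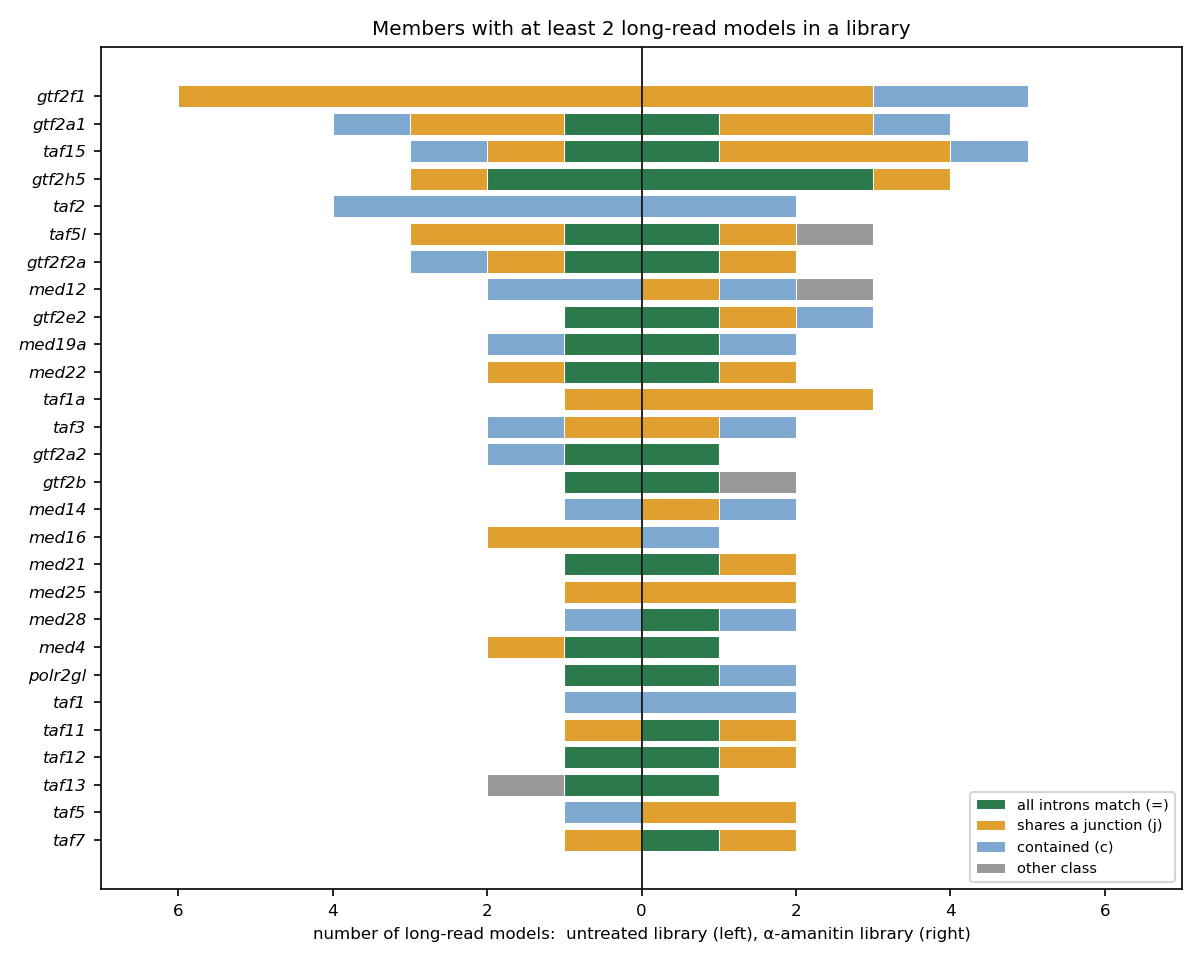
Number of long-read models for the 28 genes with at least 2 models in a library, untreated to the left and α-amanitin to the right, coloured by class. The largest numbers are those of gtf2f1 (6 and 5), in which no intron-matched model appears.

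Long transcripts of this machinery were seen in pieces. Of the 69 genes, 7 had a reference transcript over 4000 bases: med12, med13a, med13b, med14, med23, taf1 and taf2. Their 21 models in the 2 libraries included 0 intron-matched models, which allows a share of up to 14.3%, and 18 contained ones (85.7%, 65.4 to 95.02). The limit and the interval treat models as independent, but the 21 come from 7 genes, so both understate the uncertainty. References over 4000 bases were not matched further for length. Over all reference transcripts of that length, 8.65% of models matched all introns and 57.6% were contained. The longest of the 21 was a contained model of med12, of 2964 bases against a reference of 6938 bases. The drug library also held a med12 model of 1985 bases on the opposite strand. For these genes a model shows which part was sequenced and not the full transcript.

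**Figure D4:**
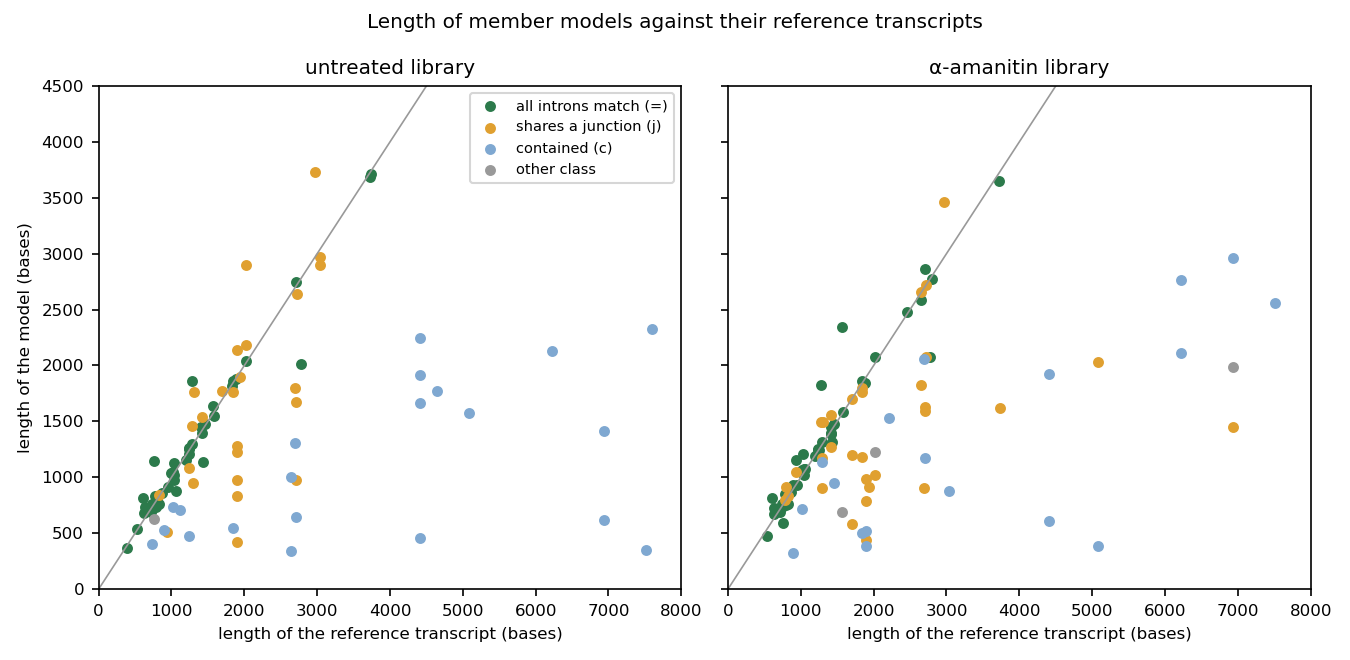
Length in bases of each model (y axis) against its reference transcript (x axis) in the untreated and α-amanitin libraries, coloured by class. Intron-matched models lie near the line of equal length, and models of references over 4000 bases stay at or below 2964 bases.

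Among intron-matched models, 36 of 43 untreated ones (83.7%, 70.03 to 91.9) and 37 of 46 from the drug library (80.4%, 66.8 to 89.3) were within 10% of the reference length, against 69.5% of all such models in each library. Model over reference length had a median of 1.01 in each. Such models were found in both libraries for 38 genes, and the longest of each gene agreed within 50 bases for 27 of them (71.1%, 55.2 to 83.0), against 58.1% of all genes in that position. For 7 of the 38 genes (18.4%, 9.22 to 33.4) the lengths were over 100 bases apart, an interval that holds the 27.1% of all genes in that position. The widest gap was in gtf2b, with 1640 bases in the untreated library and 2341 bases in the drug library against a reference of 1568 bases. In taf13 the order was the opposite, at 1149 and 591 bases against 755 bases. The other genes were polr2h (979 and 1205 bases), med20 (875 and 1072 bases), med6 (1135 and 1316 bases), gtf2a1 and med18.

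Some models were longer than the reference in both libraries alike. The polr2j models had 812 bases (untreated) and 814 bases (α-amanitin), against a reference of 608 bases, and those of med29 had 730 and 727 bases against 638 bases. Since all introns match, the added bases lie in exons, and which end they extend is not given in the tables. The genes med24 and taf5l, absent from the expression values, were in each library: med24 as 1 junction-sharing model of 3728 bases (untreated) and 3466 bases (α-amanitin) against a reference of 2970 bases, and taf5l as 3 models each.

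Other genes of the pathway, from lists that the name rule does not reach, were set beside these. All 3 genes of the TBP family were lower in the control column, where 7285 of 14792 named genes were higher and the rest lower or equal. All 3 reached 5 TPM in a column. At that level named genes had a median log2 ratio of −0.47, and 3528 of 8367 were higher in the control column. The gene tbp was at 51.4 TPM there and 132 TPM in the drug column (log2 ratio −1.34), tbpl1 at 25.5 and 41.5 TPM (−0.68), and tbpl2, which encodes an oocyte form in vertebrates, at 0.876 and 23.8 TPM (−3.72). Past 2-fold, tbp and tbpl2 were lower, and after centring tbpl2 alone, where 25.7% and 18.8% of all named genes were lower, respectively.

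Further subunits of TFIIH and the Mediator kinase module had a value for 7 genes. Of these, 1 passed 2-fold toward the control column and 2 toward the other, where 22.5% and 25.7% of all named genes did. The lower ones were cdk7, the TFIIH kinase, at 33.1 TPM in the control column and 111 TPM in the drug column (log2 ratio −1.72), and its partner mnat1, at 0.361 and 7.13 TPM (−2.58). The other was the helicase gene ercc3, at 2.50 TPM in the control column and listed near 0 in the other. The Mediator kinase cdk8 was at 21.0 and 27.9 TPM and its cyclin ccnc at 41.6 and 23.9 TPM.

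Of 30 elongation and pausing genes with a value, 7 were at least 2-fold higher and 4 lower, with a median log2 ratio of 0.19, where 22.5% and 25.7% of all named genes were higher and lower. At 5 TPM or more in either column, reached by 25 of the 30, 2413 of 8367 named genes were higher and 3375 lower. Among the higher were ssrp1a, a subunit of the histone chaperone FACT, at 92.6 TPM in the control column and 3.41 TPM in the drug column (4.41), and nelfe, of the pausing factor NELF, at 30.05 and 0.722 TPM (4.17). Their listed partners with a value lay within 2-fold. These were supt16h of FACT, at 113 and 109 TPM (0.05), and nelfa (0.82), nelfb (−0.56) and nelfcd (0.37) of NELF. The lowest of the 30 was hexim1, an inhibitor of the elongation kinase P-TEFb, at 10.7 and 62.01 TPM (−2.43). Of 9 genes of polymerase assembly and of phosphatases of its C-terminal domain, 1 was higher and 4 were lower, against the same 22.5% and 25.7%. Of the 9, 8 reached 5 TPM in a column, a level at which 3375 of 8367 named genes were lower and 2413 higher. After centring 1 was higher and 3 were lower, where 30.4% and 18.8% of all named genes were. Among the lower was the assembly GTPase gene gpn3, at 9.99 and 35.2 TPM (−1.72).

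The machinery of RNA polymerases I and III was used for comparison, as 22 genes with a value. Past 2-fold lay 15 of them, 5 higher in control and 10 lower, where 22.5% and 25.7% of all named genes were. The median log2 ratio was −0.87, against 0.12 for the 67 genes chosen by name. Those 67 include the 5 subunits shared with polymerases I and III, and the polymerase I genes taf1a and taf1b. Without the taf genes of other complexes their median was 0.19. At 5 TPM or more in either column, reached by 20 of the 22, named genes had a median of −0.47, with 2413 of 8367 higher and 3375 lower. After centring, the counts were 7 and 7, where 30.4% and 18.8% of all named genes were higher and lower. The widest ratio was that of polr3gla, at 513 TPM in the control column and 0.169 TPM in the drug column (8.78), and the lowest that of polr3f, at 1.62 and 50.6 TPM (−4.30). Of the 67 genes chosen by name, those with 0.01 TPM or more in both columns had ratios from −3.11 to 2.89. The difference between these gene groups was not tested.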

How the data were processed

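Transcript models of 1 untreated and 1 α-amanitin long-read library, and a series-wide expression table, were used. Per the series description, the authors assembled long reads with IsoSeq, mapped them to GRCz10 with GMAP and compared them with Cuffcompare; versions are not given in the sources used here. The deposited tables hold 12752 (untreated) and 13102 (α-amanitin) models with other quantities, namely a class code and lengths in bases; their FPKM and coverage were 0 throughout. The deposited expression table holds log2(TPM + 1) by the authors, a unit read from the values: undoing the log gives the TPM total of 1000000 in each column. Kallisto is among the tools in the submitters' processing notes. TPM keeps no depth.

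Symbols came from the Cuffcompare tables (7695 RefSeq rows) or, by accession, from a RefSeq gene table of assembly GRCz12tu (7760 rows), together 97.0% of 15936 RefSeq rows. TPM was summed per symbol. The 16639 PB rows reach locus 11880, past the 9444 and 9504 loci of the model tables, and were not joined. Ratios used a pseudocount of 1 TPM and a 2-fold threshold. Shares have Wilson 95% intervals, which cover counting error only; a count of 0 was given a limit of 3 counts.

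Genes described singly were, in each family, those with the 4 highest and 4 lowest ratios at 5 TPM or more in either column, the 3 with most models per library and symbol pairs ending in a and b or in l (taf1a and taf1b are no paralogs); others were added to cover each complex. The members, lists and tests were chosen with earlier results of these data known. Alternatives covered the pseudocount, centring, a minimum level, the choice of transcript, the fold, class codes, model length and model number. The ratio step was run on simulated data without noise, which checks its arithmetic alone. Python 3.11.15, numpy 2.4.6, pandas 2.3.3, scipy 1.17.1 and matplotlib 3.10.9 were used.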

Additional observations from a re-analysis of the deposited data

How the results depend on the processing

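No paired analysis was possible because each group has 1 library. Where there was no test, a count was taken as moved past 1.5 times, a share or median when it left its 95% interval over models or genes, which are not replicates. Alternatives gave 67 values for the main comparisons, of which 52 stayed and 15 moved; for none was the cause tested beyond what each alternative does by construction. Centring the columns gave 23 genes higher, 4 lower and a median log2 ratio of 0.60, so that 85.2% of the genes past 2-fold were higher, against 54.2% without it; for all named genes these shares were 61.8% and 46.7%. A 4-fold threshold left 8 genes higher (all named genes, 12.7%) and 2 lower (13.0%), fewer by construction. Leaving out the genes near 0 in a column, chosen after seeing the data, left 6 of 58 higher (10.3%, against 22.8% of named genes filtered alike). A pseudocount of 0.1 TPM gave 17 higher and 12 lower. With intron-matched and junction-sharing models alone, 3 genes had untreated models only and 7 had α-amanitin models only. With models of at least 500 bases 5 had α-amanitin models only. At least 2 models were held by 15 genes (untreated), 24 (α-amanitin) and 11 (both), with 13 in the α-amanitin library only. The longest model per gene matched all introns in 63.5% (untreated) and 67.2% (α-amanitin) of genes. The sign of the median log2 ratio changed for the taf genes at 5 TPM or more in either column (−0.13) and without genes near 0 (−0.16), for the med genes under centring (0.38), and for all 67 genes without those near 0 (−0.023). By construction, no gene past 2-fold could change sign with the smaller pseudocount or the minimum level. Nor could one under centring, whose log2 shift of 0.48 is smaller than the 2-fold limit. The highest RefSeq transcript alone gives the same value for the 65 genes with 1 RefSeq row. The lack of sign changes is therefore no check of these genes. The number of reads behind a model or a TPM value is unknown, which limits every value.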
